A study of Mus musculus with 6 samples.

Results

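The 9 genes described here encode transcriptional regulators of the monocyte and macrophage lineage: Spi1, Cebpa, Cebpb, Cebpd, Maf, Klf2, Klf4, Id2 and Nr4a1. Their members were taken as all probes that the platform annotation assigns to 1 of these symbols, current or older, which gave 14 of the 45281 probes on the array, for 9 of its 19057 named genes. Expression was measured on 1 single-colour bead array per mouse in marrow monocytes and macrophages, isolated by magnetic separation at day 21. The hosts were BALB/c mice of the Rag2-/-γc-/- genotype, aged 11 weeks. All 6 mice carried both deletions, which leave the host without mature B, T and NK cells. The 3 control mice, A, B and C, received no treatment, and the 3 MEC1 mice, D, E and F, had been injected intravenously with MEC1 cells, which form 1 established human line derived from chronic lymphocytic leukaemia. The comparison asks how the myeloid cells of the marrow differ early in the leukaemia.

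These regulators act as a network. PU.1, the ETS-family product of Spi1, opens chromatin at myeloid genes, and C/EBP alpha directs progenitors towards granulocytes and monocytes, while C/EBP beta and C/EBP delta act in mature and inflammatory myeloid cells. MAF restrains self-renewal and sustains genes of resident macrophages, and the zinc finger factors KLF2 and KLF4 are linked to monocyte quiescence and monocyte formation. ID2 has no DNA-binding domain and instead captures E proteins, and NR4A1 is an inducible orphan nuclear receptor on which Ly6C-low monocytes of the mouse depend.

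The arrays detected 15545 to 16976 probes each, meaning a detection p-value under 0.05 against the negative controls of that array. Median raw intensity was 114 to 131 on the control arrays and 70.7 to 87.6 on the MEC1 arrays. Values below are background-corrected, quantile-normalized log2 intensities unless called raw, and 16460 probes detected on at least 3 arrays were tested with limma. Of these, 253 were called at an adjusted p under 0.05, or 1.54% (143 higher and 110 lower in MEC1 mice). Median scaling, used instead of quantile normalization, called 345 higher and 687 lower and shifted the median of all tested probes to -0.18, from -0.02. The 12 tested monocyte and macrophage markers had a summed normalized intensity of 87280 to 93290 in control and 72230 to 74770 in MEC1 mice, a sum to which bright probes such as that of Lyz2 add most. Their mean log2 intensity overlapped, at 10.78, 10.78 and 10.72 against 10.80, 10.71 and 10.47. Erythroid markers summed to 82810 to 110400 and 38560 to 74250, and neutrophil markers to 97910 to 118200 and 113300 to 119600. The 4 tested T and NK markers summed to 3394 to 4148 and 4213 to 5017 without overlap. Their mean log2 intensity did overlap, at 8.8 in control mouse B and 8.75 in MEC1 mouse E. None of the 4 was called, with log2 changes of 0.48 (Nkg7), 0.27 (Cd3d), 0.05 (Prf1) and -0.26 (Klrb1c). Cd3d, Nkg7 and Prf1 were detected on all 6 arrays, as was the B lineage marker Cd79b. The lymphoid markers Cd3e, Ncr1, Ms4a1 and Pax5 were detected on none. The part of these markers in the results below was not tested, and in such bulk RNA fewer cells of a type cannot be told apart from less RNA per cell. The groups lay at different positions of 1 chip, so position and group cannot be told apart.

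Among the 9 genes, Id2 was the one with a probe past the threshold, and it was lower in mice carrying MEC1 cells. Cebpb and Klf2 were bright on all 6 arrays with estimated changes near 0, Spi1, Cebpd and Klf4 were detected on all 6 arrays without a call, and Cebpa was detected on 5. Maf and Nr4a1 were detected on none. Of the 11 tested probes of 7 genes, 1 was called lower and none higher, beside 0.668% of all tested probes called lower and 0.869% called higher. With 1 call, the share of the members cannot be set apart from that background. The groups did not overlap in 4 of the 11 probes (36.4%), against 27.7% of all tested probes. The median log2 change was -0.16 over the tested probes of these genes and -0.02 over all tested probes. The plot of normalized values by mouse shows every probe.

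**Figure D1:**
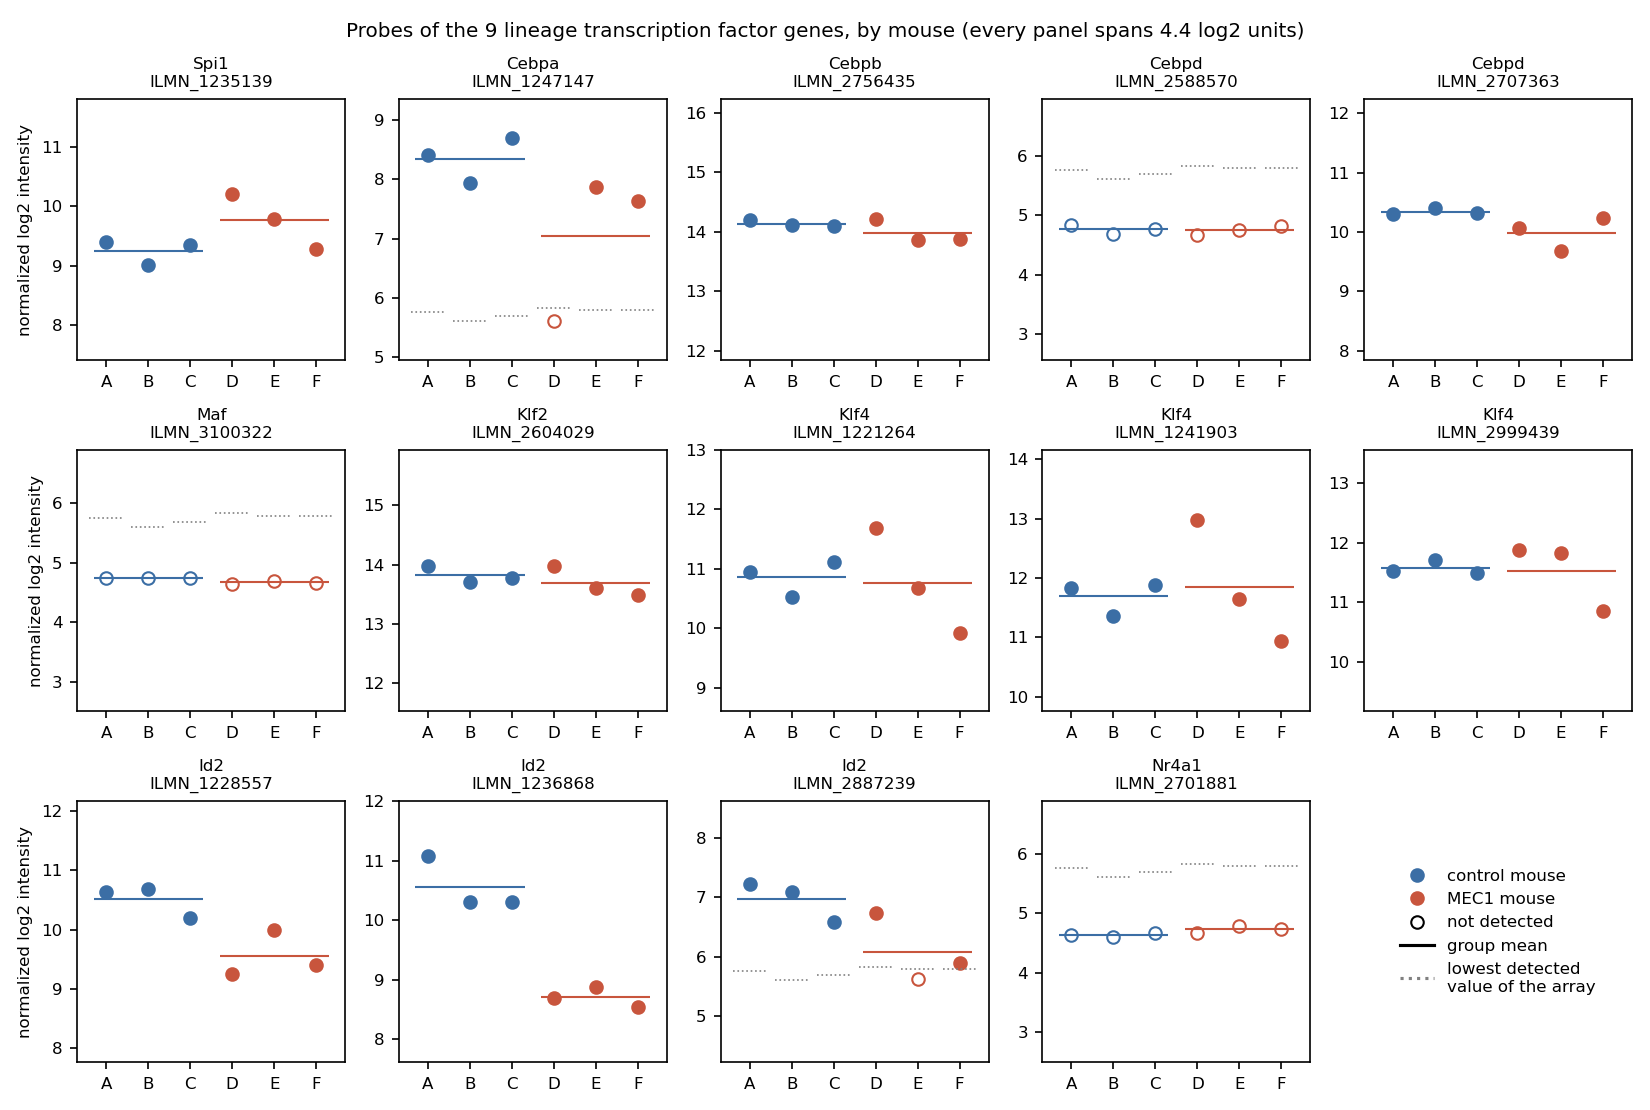
Normalized log2 intensity (vertical axis) of each of the 14 probes in control mice A to C (blue) and MEC1 mice D to F (red), with group means as lines, open points where the probe was not detected, and dotted marks at the lowest detected value of each array. The probes of Maf and Nr4a1 and 1 probe of Cebpd lie below the marks on all 6 arrays, and Id2 probe ILMN_1236868 separates the groups by more than 1 log2 unit.

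Id2, whose product holds E proteins in inactive pairs, was measured by 3 probes. Probe ILMN_1236868, annotated to a GenBank cDNA, gave normalized log2 intensities of 11.07, 10.31 and 10.31 in the controls (A, B, C in order) and of 8.69, 8.88 and 8.54 in the MEC1 group (D, E, F). All 3 MEC1 mice lay below all 3 control mice, and the MEC1 mice differed little from each other. The control mean was 10.56 ± 0.44 and the MEC1 mean 8.71 ± 0.17 (SD, n = 3 each), and the fitted log2 change was -1.86 ± 0.24 (SE; limma adjusted p = 0.0136, 95% confidence interval -2.39 to -1.32), which is 3.62-fold lower. Ranked by p, the probe was number 31 of the 16460 tested. Raw intensities of this probe were 2969, 1790 and 1683 in control and 410, 262 and 336 in MEC1 mice.

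Probe ILMN_1228557, annotated to the RefSeq transcript, read 10.64, 10.68 and 10.20 in control mice and 9.25, 9.99 and 9.41 in MEC1 mice on the normalized log2 scale. The groups again did not overlap, with MEC1 mouse E nearest to the control mice. The log2 change was -0.95 ± 0.23 (SE; limma adjusted p = 0.0897, interval -1.48 to -0.43), so this probe did not pass. The dimmest probe, ILMN_2887239, read 7.22, 7.09 and 6.59 against 6.74, 5.63 and 5.89, and was not detected in MEC1 mouse E. Here MEC1 mouse D lay within the control range, and the change of -0.88 ± 0.35 (SE; limma adjusted p = 0.214) did not pass either, though it did without mouse D (-1.21, adjusted p = 0.0287). The fitted change was thus below 0 at all 3 Id2 probes, and the size at ILMN_1236868 was about 1 log2 unit beyond that at the others. ILMN_1228557, brighter on average over the 6 arrays, stands for Id2 where 1 probe per gene is counted, and in that count none of the 9 genes was called. In control mice ILMN_1236868 was slightly brighter (mean 10.56 against 10.51), and in MEC1 mice it was dimmer (8.71 against 9.55). The choice of probe, and with it the lack of a call for Id2 in that count, thus rests on the low MEC1 values of ILMN_1236868.

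The call at ILMN_1236868 was kept when any 1 MEC1 mouse was left out (adjusted p of 0.00233, 0.0394 and 0.0424 without D, E and F). It was lost when any 1 control mouse was left out, with adjusted p-values of 0.0871, 0.0700 and 0.0895 without A, B and C, while the log2 change stayed between -1.98 and -1.60. In those 3 fits only 5, 9 and 9 of all tested probes were called.

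The start of Id2 is shown because it is the gene with the call. The 300 bases run from 250 before to 50 after the RefSeq start site in build GRCm38.p6, on the minus strand of chr12:25096043-25096342, and capitals mark matches to the CCAAT box, CCAAT on either strand, the sequence bound by the trimeric factor NF-Y.
Id2: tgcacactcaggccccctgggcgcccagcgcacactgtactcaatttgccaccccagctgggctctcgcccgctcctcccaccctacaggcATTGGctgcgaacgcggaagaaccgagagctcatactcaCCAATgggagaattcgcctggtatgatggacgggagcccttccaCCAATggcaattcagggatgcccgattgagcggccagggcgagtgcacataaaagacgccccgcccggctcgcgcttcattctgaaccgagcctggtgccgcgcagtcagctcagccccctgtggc
The window held 3 matches, with first bases 159, 120 and 76 before the start site. Of 32851 mouse promoter windows of the same length, 37.4% held at least 1 match and 3.37% at least 3. The motif was picked after the sequence had been read, and a match is a description of letters and not of binding.

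Spi1, which encodes the lineage-determining factor PU.1, was detected on all 6 arrays by its single probe. Normalized log2 intensities were 9.40, 9.01 and 9.35 in control mice and 10.20, 9.79 and 9.28 in MEC1 mice. Mice D and E lay above every control mouse and F lay within the control range. The log2 change of 0.51 ± 0.25 (SE; limma adjusted p = 0.296) did not pass, and its interval ran from -0.06 to 1.07. The change was 0.28 without mouse D and 0.74 without mouse F, and neither passed.

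Cebpa, which directs progenitors into the granulocyte and monocyte lineages, read 8.40, 7.93 and 8.69 in control mice and 5.61, 7.87 and 7.64 in MEC1 mice. The probe was not detected in MEC1 mouse D, and the other MEC1 mice lay just under the lowest control mouse. The log2 change of -1.30 ± 0.58 (SE; limma adjusted p = 0.266, interval -2.65 to 0.05) did not pass. It rested largely on mouse D: without it the change was -0.58 (adjusted p = 0.192). Under median scaling the change was -1.63 and passed (adjusted p = 0.0199), where the median of all tested probes was -0.18.

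Cebpb, a driver of inflammatory and emergency myeloid expression, was among the bright probes, with raw intensities of 23070, 21920 and 20120 in control and 17800, 8778 and 12530 in MEC1 mice. After normalization these became log2 intensities of 14.19, 14.11 and 14.10 against 14.21, 13.86 and 13.87. Mouse D was the highest of the 6 mice, and E and F were the lowest. The log2 change was -0.16 ± 0.11 (SE; limma adjusted p = 0.442), with an interval of -0.40 to 0.09, and its sign turned under median scaling (0.52).

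Cebpd, an acute-phase and inflammatory C/EBP gene, had 2 probes that disagreed in brightness. Probe ILMN_2707363 read 10.30, 10.40 and 10.32 in control mice and 10.06, 9.68 and 10.24 in MEC1 mice. The MEC1 mice lay below the control mice without overlap, mouse F by a narrow margin, and the log2 change of -0.35 ± 0.18 (SE; limma adjusted p = 0.318, interval -0.76 to 0.06) did not pass. Probe ILMN_2588570 was not detected on any array, with raw intensities of 59 to 107, and was not tested.

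Klf2, a factor of quiescence, was bright in both groups. Its normalized log2 intensity was 13.97, 13.70 and 13.77 in control mice and 13.97, 13.61 and 13.49 in MEC1 mice. Mice A and D shared the top value and the groups overlapped. The log2 change was -0.13 ± 0.14 (SE; limma adjusted p = 0.631), with an interval of -0.43 to 0.18, and its sign turned under median scaling (0.47).

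Klf4, which promotes monocyte formation, was detected on every array by 3 probes. Probe ILMN_1241903, the brightest, read 11.83, 11.36 and 11.89 in control mice and 12.97, 11.64 and 10.94 in MEC1 mice. Mouse D was the highest of the 6 mice and mouse F the lowest, so the MEC1 group spread on both sides of the control group. Probe ILMN_1221264 showed the same order at the ends, with 11.68 in D and 9.92 in F against 10.52 to 11.11 in control mice. Probe ILMN_2999439 read 11.88 in D, 11.83 in E and 10.85 in F against 11.49 to 11.72. Log2 changes at ILMN_1241903, ILMN_1221264 and ILMN_2999439 were 0.16 ± 0.51, -0.10 ± 0.42 and -0.06 ± 0.26 (SE; limma adjusted p = 0.884, 0.911 and 0.913). The sign at each of the 3 probes turned in at least 1 alternative fit, and the interval at the brightest probe, -1.08 to 1.39, covers more than 1 log2 unit in either direction.

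Maf and Nr4a1 were not detected on any array. The Maf probe had raw intensities of 97, 86 and 89 in control mice and 64, 56 and 64 in MEC1 mice, where the lowest detected raw intensity of an array was 140 to 172 and 84.6 to 109. The Nr4a1 probe had 85, 71 and 81 against 64, 60 and 69. Neither was tested and no fold is given, since each gene had 1 probe and both groups lay below background. Signal not above background at 1 probe does not show that the transcript was absent.

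The starts of Cebpb and Nr4a1 are shown side by side because the first gene was bright on every array and the second detected on none, while both windows hold the heptamer TGACGCA on either strand, a variant of the cAMP response element. Both windows run from 250 before to 50 after the RefSeq start in GRCm38.p6, Cebpb on the plus strand of chr2:167688665-167688964 and Nr4a1 on the plus strand of chr15:101266596-101266895, with the heptamer in capitals.
Cebpb: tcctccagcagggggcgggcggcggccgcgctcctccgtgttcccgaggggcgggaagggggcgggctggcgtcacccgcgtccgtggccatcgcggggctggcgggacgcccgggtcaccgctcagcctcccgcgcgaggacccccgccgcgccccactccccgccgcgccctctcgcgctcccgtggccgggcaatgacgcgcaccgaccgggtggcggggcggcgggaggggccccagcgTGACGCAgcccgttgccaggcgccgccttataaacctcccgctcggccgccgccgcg
Nr4a1: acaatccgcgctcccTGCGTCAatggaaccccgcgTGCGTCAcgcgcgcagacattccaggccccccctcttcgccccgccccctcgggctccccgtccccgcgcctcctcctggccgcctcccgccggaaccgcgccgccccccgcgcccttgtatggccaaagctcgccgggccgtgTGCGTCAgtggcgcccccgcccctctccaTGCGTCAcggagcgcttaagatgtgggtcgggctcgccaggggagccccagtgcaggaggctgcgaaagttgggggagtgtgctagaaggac
The heptamer occurred once in the Cebpb window, with its first base 7 before the start, and 4 times in that of Nr4a1, with first bases 235, 215, 71 and 42 before it. At least 1 match was present in 2.12% of the 32851 windows, and 1 window held 4 or more. The heptamer too was picked after the sequences had been read. Promoter windows from RefSeq were at hand for 6 of the 9 genes. The motifs TATAAA and GGGCGG were searched too, on both strands.

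The spread of these genes was wider among MEC1 than among control mice. The SD was larger in the MEC1 group at 10 of the 11 tested probes, the exception being Id2 probe ILMN_1236868, and at 76.1% of all tested probes. Median SDs were 0.27 in control and 0.46 in MEC1 mice over the tested probes of these genes, and 0.18 and 0.33 over all tested probes. The plot of log2 changes shows the widest intervals for Cebpa and for 2 of the Klf4 probes.

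**Figure D2:**
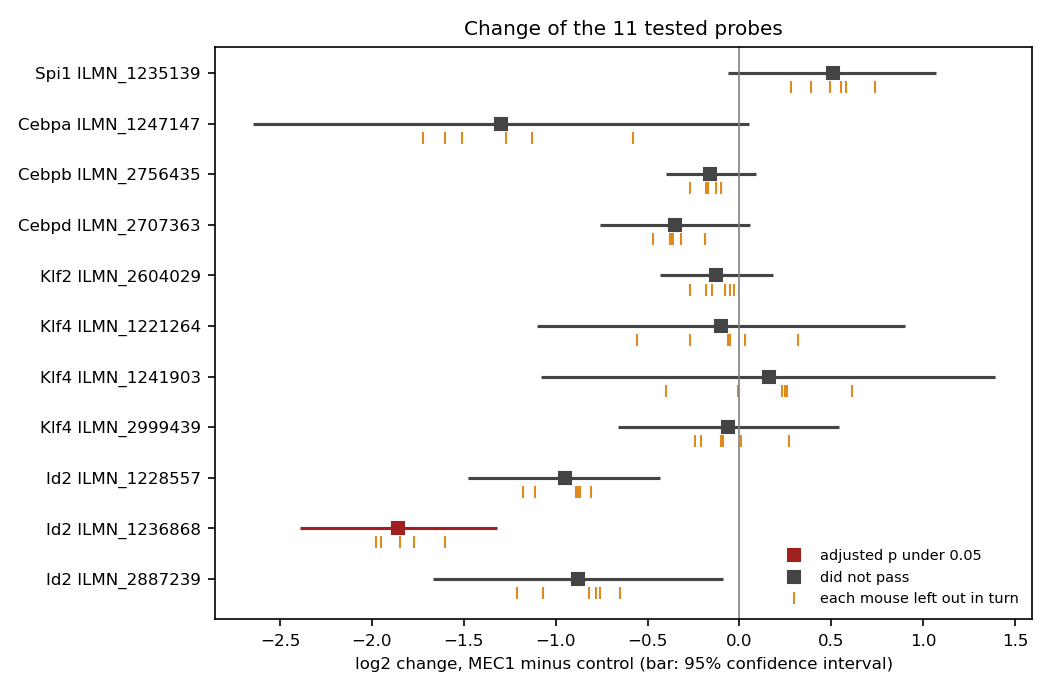
Log2 change, MEC1 minus control (horizontal axis), of the 11 tested probes with 95% confidence intervals as bars, and the change with each mouse left out in turn as orange ticks. Id2 probe ILMN_1236868 (red) has an adjusted p of 0.0136, all ticks of the 3 Id2 probes lie below 0, and those of Klf4 lie on both sides.

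Differences between members within an array were compared to see whether the balance of related factors differed. Cebpb minus Cebpa was 5.79, 6.18 and 5.41 log2 units in control mice and 8.60, 5.99 and 6.23 in MEC1 mice. Mouse D stood apart, and its value rests on a Cebpa signal that was not detected there. The difference between the group means was 1.14 (two-sided exact permutation p = 0.2, adjusted p = 0.45 over 3 differences). Cebpd minus Cebpa differed by 0.95 (exact permutation p = 0.3, adjusted p = 0.45), with the same undetected signal in D, and Klf2 minus Klf4 by -0.28 (exact permutation p = 0.8, adjusted p = 0.8). Without mouse D, the differences for Cebpb minus Cebpa and Cebpd minus Cebpa were 0.31 and 0.20. Cebpb minus Cebpa was 2.15 under median scaling and 0.72 in the authors' processed values, and Cebpd minus Cebpa was 0.56 in the latter. With 3 mice against 3 the smallest p possible is 0.1, so no such difference could pass. The plot of within-array differences shows that mouse D sets the extreme value in each of the 3.

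**Figure D3:**
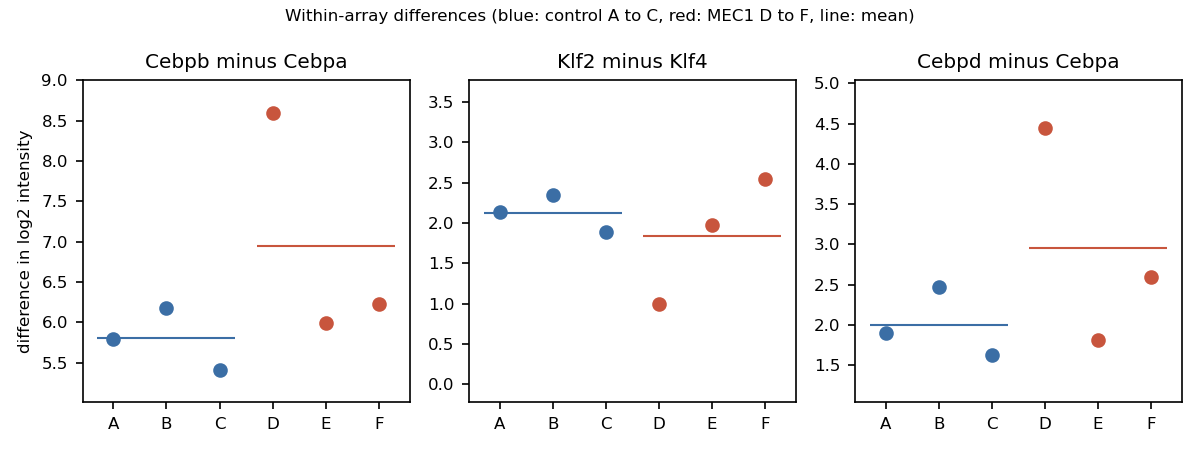
Difference in normalized log2 intensity between 2 genes on the same array (vertical axis) for each mouse, control in blue and MEC1 in red, with group means as lines. MEC1 mouse D is at 8.60 for Cebpb minus Cebpa and 4.45 for Cebpd minus Cebpa, the highest of the 6 mice, and is the lowest for Klf2 minus Klf4.

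Related factors of the same families showed few calls, on 1 probe per gene, against a background of 158 calls in 9089 genes (1.74%, made up of 0.946% up and 0.792% down in MEC1 mice). None of 3 tested other C/EBP family genes, 11 other ETS family genes, 6 other MAF family genes, 8 other ID and E protein genes and 10 other NR4A and nuclear receptor genes passed, with median log2 changes of -0.24, -0.35, -0.18, -0.10 and 0.13, beside a median of 0.00 over all tested genes. Of 8 other KLF family genes 1 fell: Klf9, a glucocorticoid-inducible KLF gene, read 12.01, 11.53 and 11.55 in control and 10.46, 10.33 and 10.43 in MEC1 mice, with a fitted log2 change of -1.29 ± 0.17 (SE; limma adjusted p = 0.0139). All 3 MEC1 mice lay below all 3 control mice. Klf3, which encodes a repressor, had a change of -1.37 ± 0.33 (adjusted p = 0.085), the erythroid factor gene Klf1 -1.04 and Klf6 -0.16, none of which passed. The median of the other KLF genes was -0.25.

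None of the 8 tested relatives and partners of Id2 passed on 1 probe per gene, as Id2 itself did not on that count. Id1, which encodes another inhibitor of E proteins, had a log2 change of 0.43 ± 0.15 (limma adjusted p = 0.181) and Id3 of -0.13. The E protein genes Tcf3, Tcf4 and Tcf12 had changes of 0.08, -0.33 and -0.06, and Lmo2 and Tal1, whose products work in a complex with E proteins, had -0.71 and -0.85. Of 7 genes under ID2 and E protein control none passed, with Batf3, a factor of dendritic cells, at -1.09 and Irf8 at 0.57. No control array detected Spib. With control signal raised to the lowest detected value of each array, Spib was 1.93-fold higher (limma adjusted p = 0.167).

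In the other families, Ddit3, which encodes the stress-induced CHOP, had a log2 change of -0.44, the granulocyte factor gene Cebpe 0.31 and Cebpg -0.24. Elk3, Elf1 and Ets2 of the ETS family had -0.96, -0.47 and -0.35. Among MAF relatives and their partners, the heme-regulated repressor gene Bach1 had -1.09, the oxidative stress factor gene Nfe2l2 -0.83, Mafg 0.50 and Maff 0.38. Nr4a2, a relative of Nr4a1, was detected on all arrays and had a change of -1.34 ± 0.32 (limma adjusted p = 0.0813). Nr4a3, also detected on all arrays, had a change of 0.05 ± 0.31 (adjusted p = 0.945). No control array detected Nr1h3, which encodes LXR alpha, and no MEC1 array detected Nr1d2, the circadian receptor gene. With such signal raised to the lowest detected value of each array, Nr1h3 was 1.86-fold higher (limma adjusted p = 0.054). Nr1d2 was 1.32-fold lower on the same terms (adjusted p = 0.159). The retinoic acid receptor gene Rara had a change of 0.94, detected on 1 control array. The adjusted p of each of these genes was above 0.05. Second probes of Ddit3, Mafg, Batf3 and Spib read 0.03, -0.45, 0.02 and -0.03.

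Of 24 other myeloid lineage regulators 1 fell and none rose. Irf4, a factor of alternatively activated macrophages and dendritic cells that KLF4 is known to act with, changed by log2 -1.70 ± 0.28 (SE; limma adjusted p = 0.0269), from 7.26 ± 0.16 to 5.56 ± 0.35 (SD, n = 3 each), and was detected on 1 MEC1 array. Egr2 and Egr1, factors of monocyte differentiation and early response, had -0.94 and -0.31 (adjusted p = 0.0828 and 0.121) and did not pass. The median of this list was -0.25.

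Target genes of these factors moved in both directions. Of 23 genes driven by PU.1 and C/EBP factors, 1 rose, 1 fell and 21 did not pass, with a median log2 change of -0.09. The rise was that of the Fc receptor gene Fcgr1 (1.77 ± 0.25; limma adjusted p = 0.017) and the fall that of the lysozyme gene Lyz2 (-0.45 ± 0.09; adjusted p = 0.0491) at 1 of 3 probes. Tlr2 and Fcgr3 had -0.35 and -0.42 and did not pass. Of 16 granule and acute-phase genes bound by C/EBP factors, 4 rose and none fell on 1 probe per gene (median 0.27). These were Saa3 (6.58 ± 0.31; adjusted p = 8.7e-05), Socs3 (1.37 ± 0.15; adjusted p = 0.0105), the azurophil protease gene Prtn3 (0.39 ± 0.08; adjusted p = 0.0483) and Hp (0.43 ± 0.09; adjusted p = 0.0488), Hp at 1 of 3 probes. Saa3 was detected on 1 control array, so its change is measured partly against undetected signal. Cd177 of the same list did not pass at the probe that stood for it (-0.65), but its other tested probe was called lower (-0.94).

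Only 4 of 18 MAF target genes were tested, and 8 were detected on no array, among them Timd4, Siglec1, Cd5l and Folr2 of resident macrophages. The mannose receptor gene Mrc1 fell by 1.71 on the log2 scale (SE 0.25; limma adjusted p = 0.0207), and the iron exporter gene Slc40a1, Hmox1 and Vcam1, at -0.98, 0.60 and 0.19, did not pass. Of 8 tested genes listed as KLF2 and KLF4 targets, Irf4 fell, and Thbd, Ccr2 and Ly6c1, at -1.23, -0.23 and -0.06, did not pass. The fall of Irf4 is the one given above among the lineage regulators, and whether Irf4 is a target here was not tested. Of 12 tested genes of NR4A1-dependent nonclassical monocytes, the G protein gene Gngt2 rose (1.84 ± 0.29; adjusted p = 0.0257), while Treml4, Ceacam1 and Cx3cr1, at 1.47, -0.58 and -0.83, did not pass (median -0.13). Of 22 immediate early genes, the class to which Nr4a1 belongs, Socs3 rose and Gadd45b, Fosl2 and Nr4a2, at 1.03, -1.06 and -1.34, did not pass (median -0.15). The other 2 probes of Fosl2 read -0.27 and 0.36. Dusp2 of the same list did not pass at the probe that stood for it (0.51), but its other tested probe was called higher (0.84). Over all lists, 6 of 148 distinct tested genes were called higher and 4 lower, beside 0.946% and 0.792% of all tested genes. The lists were chosen with earlier results of these data known, so these counts cannot show an excess over that background. Without any 1 of the control mice 1 list gene was called higher and 0 lower, and without MEC1 mouse D 16 were called lower. The plot of related factors and target genes shows all lists.

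**Figure D4:**
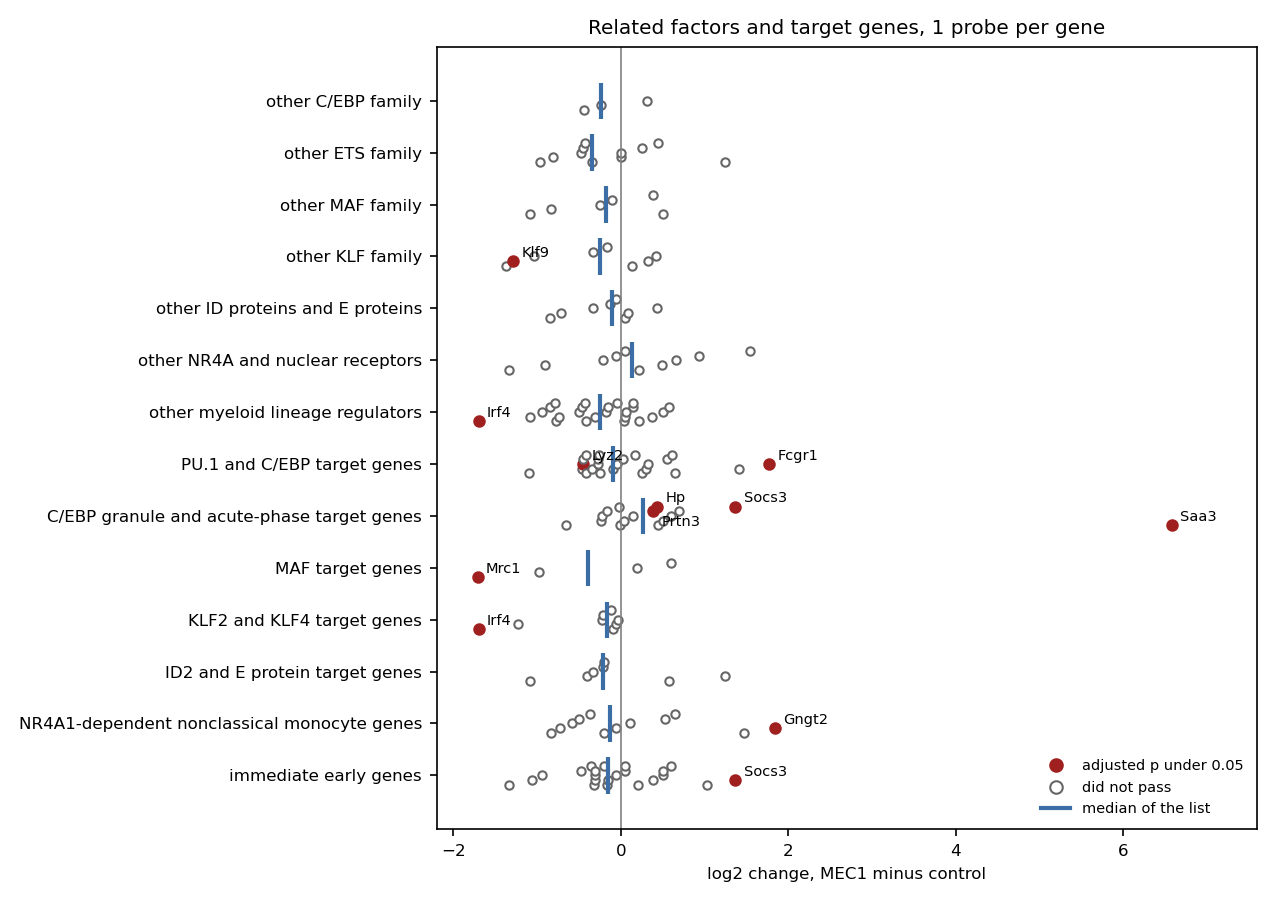
Log2 change, MEC1 minus control (horizontal axis), of each tested gene of the 14 lists of related factors and target genes (1 point per gene, filled and named where the adjusted p is under 0.05, blue bar for the median of the list). Klf9, Irf4, Mrc1 and Lyz2 lie below 0 among called genes, and Saa3, Socs3, Fcgr1, Gngt2, Prtn3 and Hp above.

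Genes with the most similar profile were found by the root mean square difference over the 6 arrays after centring each gene on its own mean, among 9082 other tested genes. The nearest gene was Pdgfa for Id2 (0.112 log2 units, where the spread of Id2 itself was 0.55), Sfpq for Cebpa (0.137) and Clptm1 for Spi1 (0.0582). It was Tepsin for Klf4 (0.0662), Kif1b for Klf2 (0.0565), Pik3c3 for Cebpb (0.0251) and R3hdm1 for Cebpd (0.0313). The members' own spreads were 0.995 (Cebpa), 0.387 (Spi1), 0.624 (Klf4), 0.178 (Klf2), 0.142 (Cebpb) and 0.242 (Cebpd). Distances are therefore not comparable between members. Id2 was represented by ILMN_1228557, which did not pass. Pdgfa lay below the lowest detected value of the array in mice D (5.46 against 5.83) and F (5.50 against 5.79). Tepsin did so in mouse F (5.39 against 5.79). These are descriptions of 6 arrays. None of the 7 neighbours was itself called (limma adjusted p of 0.180 to 0.919). Sfpq shared the low value of Cebpa in mouse D, at 6.23 against 8.03 to 9.10 in the other mice.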

How the data were processed

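Per the labels, total RNA of 6 mice (3 control, 3 MEC1) was hybridised to 1 Illumina bead array each. For every probe and array, the authors' deposited table gives the average signal intensity before normalization and the p-value of detection. GenomeStudio (version not stated) is named in the submitters' processing notes. The authors' processed intensity values, deposited on a linear scale, served as an alternative. Intensities were processed with neqc in limma 3.58.1 (R 4.3.3): normexp background correction, an offset of 16, quantile normalization and log2. Probes detected (p under 0.05) on 3 or more arrays were tested by lmFit and eBayes with trend and robust variance, two-sided, with Benjamini-Hochberg adjustment over all 16460. Folds of genes undetected in 1 group are estimates in which lower signal was raised to the lowest detected value of each array. They allow for no sampling error, and the p-values given with them are from the fit without this step. The steps were tested on simulated data. The number of arrays limits the precision.

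Probes were named from the platform annotation, updated by Entrez ID: 34885 of 45281 had 1 symbol, 18 several (not named) and 10378 none here. The brightest tested probe stood for a gene in the 14 lists. The members and lists were chosen with earlier results of these data known. Named are all probes of the 9 genes, up to 4 genes per list, ordered by p, and the nearest gene by profile, plus genes singled out after their values were seen (Id3, Tcf3, Tcf12, Nr4a3, lymphoid markers and undetected targets). The planned difference between Maf and Spi1 was not computed, since Maf was not detected.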

Additional observations from a re-analysis of the deposited data

How the results depend on the processing

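No paired analysis was possible because the mice of the 2 groups share no label. The fall at Id2 probe ILMN_1236868 kept its direction in all alternatives and its call in all but those without a control mouse (range -1.98 to -1.60 over the 6 fits leaving out 1 mouse). Array weights called 2 probes of the 9 genes, 581 of all probes and 12 list genes lower, median scaling 3, 1032, 10 higher and 13 lower, and moderation without trend and robust variance 95 of all probes and 3 list genes higher, against 1, 253, 6 and 4 (list genes higher and lower) as reported. The added calls were Id2 ILMN_1228557 (array weights, -0.96), Cebpa (-1.63) and Id2 ILMN_2887239 (-1.13, both median scaling), the last also without MEC1 mouse D (-1.21). Leaving out 1 mouse gave 0 to 2 called probes of the 9 genes, 5 (without control mouse A) to 1218 (without MEC1 mouse D) of all probes, and 1 to 9 list genes higher and 0 to 16 lower. Signs turned under median scaling for Cebpb (0.52), Klf2 (0.47), Klf4 ILMN_2999439 (0.07) and Klf2 minus Klf4 (0.15). Scaling on the median of probes detected on all 6 arrays, added after seeing the data, gave 0.23, 0.21 and 0.01 for the same 3 probes. Array weights gave -0.09 for Klf4 ILMN_1241903. With 1 mouse left out, ILMN_1221264, ILMN_1241903 and ILMN_2999439 ranged from -0.56 to 0.32, -0.40 to 0.61 and -0.24 to 0.27, and Klf2 minus Klf4 from -0.64 to 0.14. The causes were not tested. Of 255 values under alternatives, 204 kept their direction and side of the threshold or stayed within 1.5 times. Signal near background limits what can be said of Maf, Nr4a1 and Cebpd probe ILMN_2588570.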
